A study of Mus musculus with 10 samples.

Results

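The S100A genes encode small calcium-binding proteins, and 10 of them were followed here in the mouse oesophagus after exposure to 4-NQO (4-nitroquinoline 1-oxide), a carcinogen used to raise squamous tumours of mouth and oesophagus. The members were chosen by name (S100a3, S100a4, S100a6, S100a7a, S100a8, S100a9, S100a10, S100a11, S100a14 and S100a16) among 22740 protein-coding genes, and all 10 passed the filter on low counts that 13731 genes passed. RNA came from 5 mice labelled Grhl3 knockout (Grhl3 KO) and 5 labelled wild type, all of strain C57BL/6 and all exposed to 4-NQO; the labels give no age, and each library is named by its group and sample number. Grhl3 encodes a transcription factor of the grainyhead-like family that acts in surface epithelia. The labels name tumour tissue for Grhl3 KO but leave that word out for wild type, while the series' design text calls both tumours, so genotype and a possible difference in tissue cannot be told apart. The series title calls the knockout conditional and the Grhl3 KO columns carry the word Cre; the sources used here do not name the driver of the recombinase.

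S100 proteins carry a pair of EF-hand calcium-binding loops, work mostly as dimers, and open a hydrophobic face on binding calcium, through which they hold their target proteins. S100A8 and S100A9 join into calprotectin, which binds calcium, zinc and manganese, is stored in neutrophils and is made by squamous and inflamed epithelia, and acts outside cells through receptors such as TLR4 and RAGE. Most S100A genes lie beside the genes of the cornified envelope in the epidermal differentiation complex, a cluster that is active in stratified epithelia such as the oesophageal lining.

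All 10 members lie on chromosome 3 (GRCm38), from 90526856 (the start of S100a14) to 93564643 (the end of S100a10), a span of 3.04 Mb. S100a14, S100a16, S100a3, S100a4, S100a6, S100a7a, S100a8 and S100a9 follow each other in this order. Only S100a9 is on the minus strand, 22.6 kb beyond S100a8. S100a11 and S100a10 sit at the far end of the complex, 2825 kb beyond S100a9. The 250 bases before the start site of S100a8 and S100a9 are shown because these genes varied together over the libraries, and those of S100a11 because its libraries did not overlap between the groups. They are RefSeq sequences of GRCm38.p6, with capitals marking TATAAA in S100a8, TTGCNNAA (a C/EBP-type motif) in S100a9 and TGANTCA (an AP-1-type motif) in S100a11.
S100a8, chr3:90668821-90669070, plus strand: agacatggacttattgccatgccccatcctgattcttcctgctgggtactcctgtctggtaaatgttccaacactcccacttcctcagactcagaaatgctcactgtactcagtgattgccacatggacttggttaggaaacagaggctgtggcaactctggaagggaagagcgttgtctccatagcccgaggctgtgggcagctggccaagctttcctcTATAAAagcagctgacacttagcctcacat
S100a9, chr3:90695722-90695971, minus strand: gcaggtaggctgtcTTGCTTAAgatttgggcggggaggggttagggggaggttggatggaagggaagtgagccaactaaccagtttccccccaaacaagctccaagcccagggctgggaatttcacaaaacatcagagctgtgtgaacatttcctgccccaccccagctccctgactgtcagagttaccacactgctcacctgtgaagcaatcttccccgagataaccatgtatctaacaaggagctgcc
S100a11, chr3:93520246-93520495, plus strand: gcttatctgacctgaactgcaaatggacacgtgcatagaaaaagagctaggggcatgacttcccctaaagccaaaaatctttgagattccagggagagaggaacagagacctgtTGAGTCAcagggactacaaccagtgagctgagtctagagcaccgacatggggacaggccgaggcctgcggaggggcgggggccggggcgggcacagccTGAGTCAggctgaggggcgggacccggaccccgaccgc

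In S100a8 the TATAAA match began 30 bases before the start site. S100a9 had no TATAAA match in this window and held its TTGCNNAA match 236 bases before the start site. S100a11 held TGANTCA at 2 places, 136 and 38 bases before its start. Motifs were searched on both strands in 12 windows of 8 members and in all 32851 windows of that length. TATAAA was found in 3 of the 12 (S100a3, S100a4 and S100a8) against 12.4% of all windows, TTGCNNAA in 1 against 9.56%, and TGANTCA in 2 (S100a11 and S100a16) against 6.75%. AACCGGTT, the grainyhead-type motif, was found in 0 of the 12 windows and in 0.116% of all windows. The sequences of S100a10 and S100a14 were not used here. These matches describe letters only.

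The libraries held 15.3 to 32.9 M counts each. Grhl3 itself was at 135 to 317 CPM (counts per M of scaled library size, with M the prefix mega) in the knockout libraries and at 109 to 363 CPM in the others, so the counts do not check the genotype labels. Eif2s3y, a Y-linked gene, was under 1 CPM in 2 of the 5 wild-type libraries (1528 and 1555) and at 71.0 to 75.6 CPM in all Grhl3 KO libraries, so sex is not balanced between the groups. The libraries held the keratins of oesophageal epithelium at high levels, with Krt5 of basal cells at 7418 to 13382 CPM and Krt13 of suprabasal cells at 4958 to 43057 CPM. In bulk tissue, fewer cells of a type and less RNA per cell cannot be told apart.

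Per kilobase of annotated exon, the scale on which genes can be compared with each other, S100a9 and S100a8 stood far above the other members. S100a9 averaged 11642 CPM per kb over the 10 libraries and ranked 1 among the genes with an annotated position, and S100a8 averaged 6354 CPM per kb and ranked 5. S100a11 followed at 1266 CPM per kb and S100a6 at 1100 CPM per kb. S100a14, which is abundant in surface epithelia, averaged 548, S100a16 averaged 372 and S100a10 averaged 323 CPM per kb. S100a4 averaged 153 and S100a7a, the mouse relative of human psoriasin, 56.5 CPM per kb. S100a3, best known from the hair cuticle, came last at 1.37 CPM per kb, over an annotated exon length of 5.66 kb that includes long alternative first exons. Over the 10 libraries, the ranges of neighbours in this order overlapped, except those of S100a8 and S100a11 and of S100a7a and S100a3. Together the members took 1.32 ± 0.151% of all counts in the Grhl3 KO libraries and 1.57 ± 0.885% in the wild-type ones (SD, n = 5 each). S100a8 and S100a9 alone held 0.929 ± 0.136% and 1.11 ± 0.892%.

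**Figure D1:**
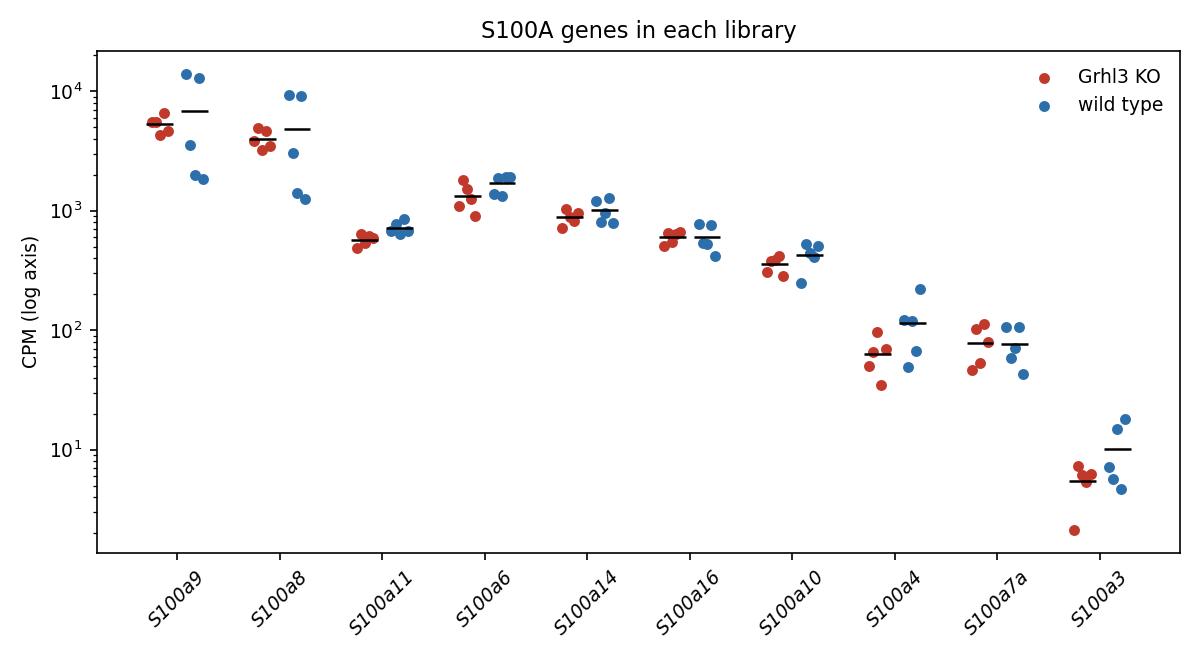
Each point is 1 library, coloured by group, with CPM on a log axis and black bars for the group means; genes are ordered by mean CPM per kb. S100a8 and S100a9 spread widely among the wild-type libraries (1258 to 9263 CPM for S100a8) and little among the Grhl3 KO libraries (3243 to 4877 CPM).

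The comparison of Grhl3 KO with wild type called no member at an adjusted p of 0.05, neither in edgeR's quasi-likelihood test nor in DESeq2 or limma voom. In edgeR 11 of all 13731 genes passed, or 0.0801%. Unadjusted, 2 members (S100a4 and S100a11) had an edgeR p under 0.05, both lower in Grhl3 KO, against 7.16% of all genes tested in either direction and 3.72% in that direction; DESeq2 gave 3 members and limma voom 1. Fitted levels were lower in Grhl3 KO for 9 of the 10 members, where 50.3% of all genes were lower. S100a16 is counted among the 9 at a fold of only 0.998, and its sign reversed in 8 of 21 alternative fits. The median log2 fold change of the members was −0.30, against a median of all genes within 0.01 of 0. The members' counts are not independent of each other. The number with lower fitted levels was 6 of 10 in limma voom and 6 of 10 without wild-type library 1028. It was 10 of 10 among the 7 libraries numbered 1026 to 1048. These hold all 5 Grhl3 KO libraries but only wild type 1028 and 1048. The libraries numbered 1528 to 1561 are all wild type, so number series and genotype are partly confounded.

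**Figure D2:**
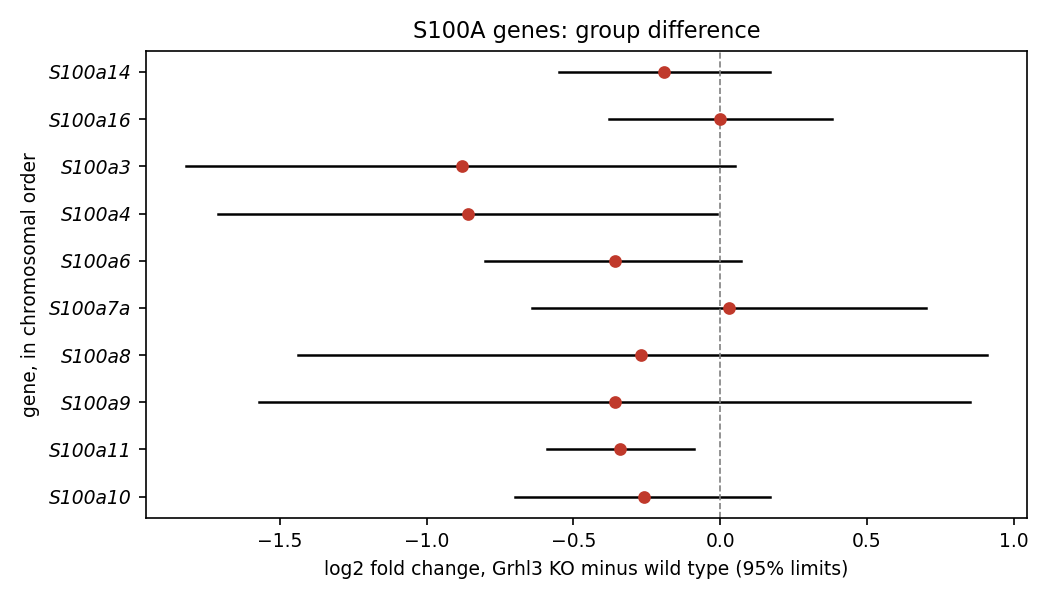
Points are edgeR log2 fold changes, Grhl3 KO minus wild type, and lines their 95% limits, with genes in chromosomal order from S100a14 to S100a10. The limits of S100a4 and S100a11 lie below 0 before adjustment; those of S100a8 and S100a9 are the widest.

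S100a8 and S100a9, the calprotectin subunits, differed more among wild-type mice than between the groups. S100a8 was at 3819, 4877, 3243, 4596 and 3469.6 CPM in Grhl3 KO libraries 1026, 1027, 1035, 1036 and 1043, and at 9263, 3023, 1413, 9132 and 1258 CPM in wild-type libraries 1028, 1048, 1528, 1555 and 1561. Wild-type libraries 1028 and 1555 thus lay above every Grhl3 KO library, and 1048, 1528 and 1561 below every one. The highest wild-type library held 7.36 times the S100a8 level of the lowest, against 1.5 times in Grhl3 KO; the difference in spread was not tested. S100a9 was at 5564, 5543, 4304, 6547 and 4629 CPM in the same Grhl3 KO libraries and at 14025, 3557, 1999.6, 12761 and 1842 CPM in the wild-type ones. It ordered the wild-type libraries as S100a8 did, with a 7.61-fold range against 1.52-fold in Grhl3 KO.

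S100a8 averaged 4001 ± 709 CPM over the Grhl3 KO libraries and 4818 ± 4058 CPM over the wild-type libraries (SD, n = 5 each). Its log2 fold change of −0.27 had an SE of 0.53 and 95% limits of −1.44 to 0.91 (edgeR adjusted p = 0.960). S100a9 averaged 5317 ± 884 and 6837 ± 6039 CPM, with a log2 fold change of −0.36 (SE 0.55, 95% limits −1.57 to 0.85, edgeR adjusted p = 0.947). Without wild-type library 1028 the log2 fold changes were 0.11 and 0.08, so their direction rests on single wild-type libraries. Among all genes tested, the biological coefficient of variation of S100a9 (0.585) exceeded that of 95.4% of genes and that of S100a8 (0.571) 94.9%.

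Both subunits kept nearly the same proportion in every library. The log2 ratio of S100a8 to S100a9 counts was −0.54, −0.18, −0.41, −0.51 and −0.42 in the Grhl3 KO libraries and −0.60, −0.23, −0.50, −0.48 and −0.55 in the wild-type ones, in number order. It averaged −0.41 ± 0.14 and −0.47 ± 0.14 (SD, n = 5 each), and the groups did not separate (exact two-sided permutation p = 0.492, where the smallest possible is 0.00794). The ratio stayed within 0.41 log2 units while S100a8 itself ranged over 7.36-fold.

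Calprotectin is abundant in neutrophils, so the neutrophil markers were read beside it. Of the 12 markers, 6 never exceeded 10 counts in any library. Ly6g, a surface protein that defines mouse neutrophils, was at 0 in 9 of 10 libraries and had 3 counts in the other; a count of 0 allows up to 0.0912 to 0.196 CPM in these libraries, for counting error only. The granule genes Ngp and Camp were at 0 in 6 and 7 libraries and reached 4 and 3 counts. Cxcr2, a chemokine receptor of neutrophils, was at 6.10 to 16.7 CPM in Grhl3 KO and 6.74 to 18.2 CPM in wild type. Csf3r, the G-CSF receptor gene, was at 3.88 to 34.1 and 3.58 to 17.8 CPM. Retnlg was at 0 to 5.59 CPM in Grhl3 KO and 0.283 to 3.58 CPM in wild type. Mmp8 was at 0 to 1.3 CPM in Grhl3 KO and 0.236 to 1.29 CPM in wild type. Stfa2l1 was above 0 in every library, at 0.126 to 1.73 and 0.283 to 1.62 CPM. Lactoferrin (Ltf), which glands and epithelia also make, supplied most of the summed marker level, with 54.9 to 561 CPM in Grhl3 KO and 20.5 to 219 CPM in wild type. Summed over the list, neutrophil markers stood at 66.6 to 621 CPM in Grhl3 KO and 35.4 to 254 CPM in wild type. Wild-type library 1028, highest in S100a8, had the lowest sum of all (35.4 CPM), and wild-type library 1555, nearly as high in S100a8, had 254 CPM. Of these sums Ltf made 20.5 and 219 CPM. In Grhl3 KO library 1026 it made 54.9 of 66.6 CPM, so the order of the libraries by this sum depends on Ltf. The relation of S100a8 to neutrophil content was not tested. Cxcr2 was at 10.4 CPM in library 1028, within the range of the other libraries, and at 18.2 CPM in 1555. Csf3r was at 3.58 CPM in library 1028, its lowest value, and at 11.2 CPM in 1555. Of the 5 neutrophil markers that could be tested 3 were higher and 2 lower in Grhl3 KO, and of 10 monocyte and macrophage markers 6 were higher and 4 lower, with 0 past the threshold in edgeR in either list; the latter summed to 195 to 293 CPM in Grhl3 KO and 198 to 268 CPM in wild type.

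**Figure D3:**
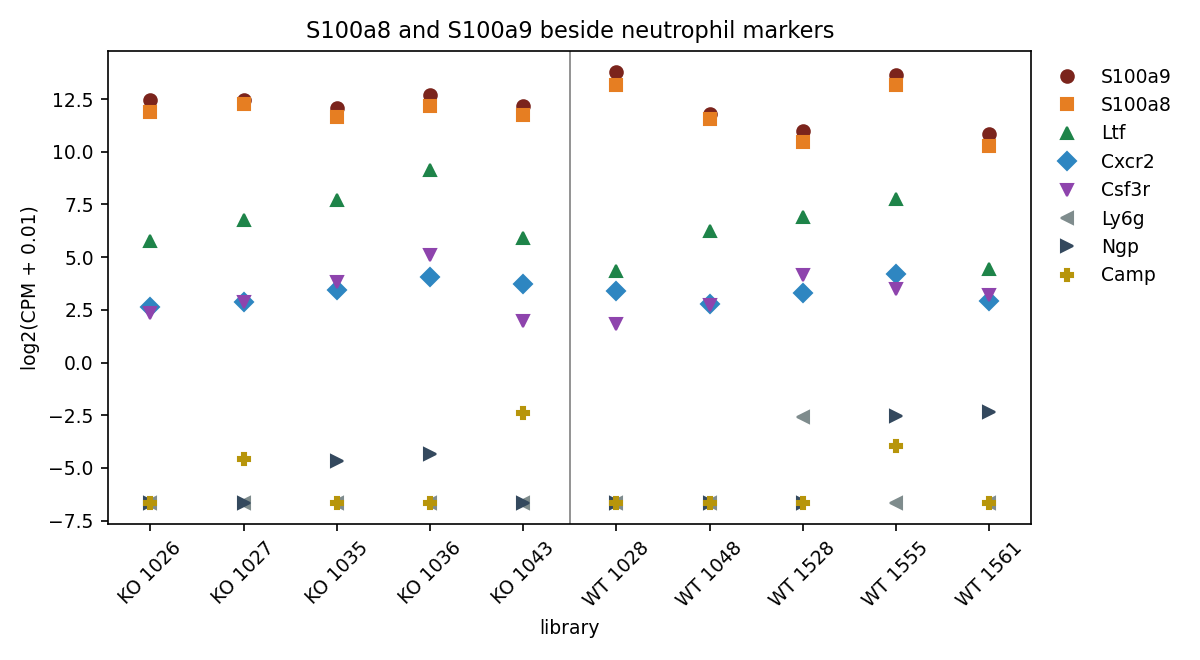
The y axis is log2(CPM + 0.01) in each library, Grhl3 KO to the left of the line and wild type (WT) to the right, with points at the bottom being libraries at 0. S100a8 and S100a9 stand at 1258 CPM or more everywhere. Ly6g, Ngp and Camp, chosen after their values were seen, stay at or near 0. Ltf, Cxcr2 and Csf3r are above 0 in every library, the lowest value being 3.58 CPM for Csf3r.

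Of S100a16, S100a7a and S100a14, only S100a16 had a correlation with S100a8 that passed after adjustment over all pairs of members, and by Pearson's r alone. S100a16, a widely expressed relative of S100A14, was at 508, 649, 549, 638 and 657 CPM in the Grhl3 KO libraries and at 770, 541, 522, 759 and 416 CPM in the wild-type ones, in number order. Wild-type libraries 1028 and 1555 were again the highest of all 10 and library 1561 the lowest. The means differed by less than the spread between libraries, at 600.2 ± 67.1 and 602 ± 156 CPM (SD, n = 5 each; fold 0.998, 95% limits −0.38 to 0.38 on the log2 scale, edgeR adjusted p = 0.999).

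S100a7a was at 46.7, 102, 52.9, 112 and 79.2 CPM in Grhl3 KO and at 106, 58.7, 70.6, 107 and 42.6 CPM in wild type. The groups overlapped over nearly their whole range, and the log2 fold change was 0.03 (SE 0.31, 95% limits −0.64 to 0.70, edgeR adjusted p = 0.992). S100a14 was at 718, 1036, 888, 820 and 950 CPM in Grhl3 KO and at 1210.3, 805, 958, 1279 and 792 CPM in wild type. Libraries 1028 and 1555 were once more the highest. The log2 fold change was −0.19 (SE 0.16, 95% limits −0.55 to 0.17, edgeR adjusted p = 0.871) and −0.10 without wild-type library 1555.

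Pairwise correlations of log2 CPM over the 10 libraries were computed for all 45 pairs of members. S100a8 and S100a9 had Pearson's r = 0.99 (permutation p = 1e-05, the smallest 100000 permutations can give, and 0.00045 adjusted over the pairs) and Spearman's rho = 0.96 (permutation p = 3e-05, adjusted 0.00135). Without wild-type libraries 1528 and 1561, farthest from the S100a8 median, r was 0.98, and among the 7 libraries numbered 1026 to 1048 it was 0.98. The other number series, 1528 to 1561, holds 3 libraries, too few for a value, and nothing in the labels explains the numbering. This was the 1 pair past the threshold by both measures. S100a8 had r = 0.71 with S100a7a and 0.63 with S100a14 (permutation adjusted p = 0.13 and 0.178; rho = 0.75 and 0.61, permutation adjusted p = 0.112 and 0.228). The r with S100a7a was 0.68 without Grhl3 KO 1026 and wild type 1561, and that with S100a14 was 0.84 without wild type 1528 and 1561. Among the 7 libraries they were 0.68 and 0.74. S100a8 with S100a11 was at r = 0.23 (permutation adjusted p = 0.686; rho = 0.02, permutation adjusted p = 0.995), 0.50 without libraries 1528 and 1561 and 0.19 among the 7.

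S100a16 went with S100a8 at r = 0.90 (permutation adjusted p = 0.00945) and rho = 0.82 (permutation p = 0.00573, adjusted 0.0811), and r was 0.86 without libraries 1528 and 1561 and 0.81 among the 7 libraries. With S100a9 its r was 0.88 (permutation adjusted p = 0.0101; rho = 0.75, permutation adjusted p = 0.112; r = 0.76 without wild-type libraries 1028 and 1561 and 0.76 among the 7 libraries). With S100a7a its r was 0.89 (permutation adjusted p = 0.00945; rho = 0.81, permutation adjusted p = 0.0811; r = 0.81 without Grhl3 KO 1026 and wild type 1561 and 0.88 among the 7). Within the 5 Grhl3 KO libraries alone, a description with too few values to test, S100a16 went with S100a7a at 0.91 but with S100a8 at 0.46 and S100a9 at 0.19. No negative correlation passed, the strongest being S100a9 with S100a10 at r = −0.61 (permutation adjusted p = 0.191). The 10 points share the scaling of their library, and skeletal muscle markers summed to 786 to 5730.5 CPM in Grhl3 KO and 1363 to 2996 CPM in wild type (17 of 17 genes higher in Grhl3 KO, 0 past the threshold in edgeR), whose part in the correlations was not tested.

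**Figure D4:**
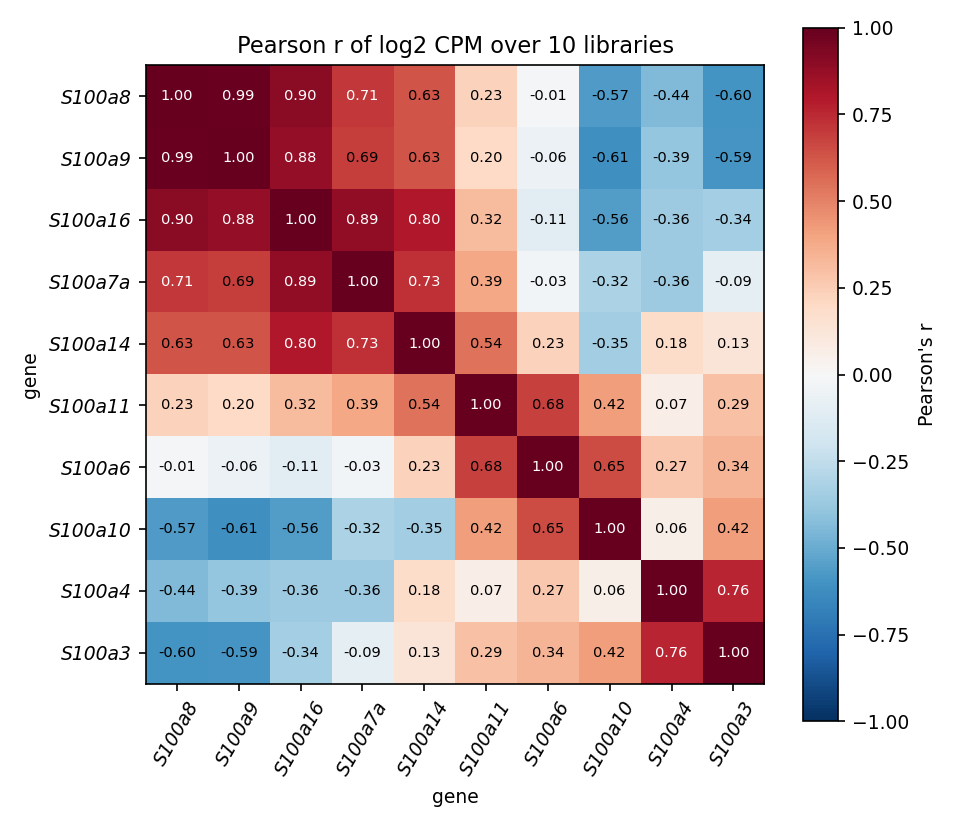
Each cell gives Pearson's r of log2 CPM between the genes of its row and column over the 10 libraries, from blue (−1) to red (1). All values among S100a8, S100a9, S100a16, S100a7a and S100a14 are positive, and those of S100a10 with each of these are negative.

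The suprabasal squamous markers, summed, stood at 103916, 37275, 54223, 61025 and 30223 CPM in wild-type libraries 1028, 1048, 1528, 1555 and 1561, and at 41770.1 to 62869.7 CPM in Grhl3 KO. Of the 11 suprabasal markers 0 passed in edgeR and 9 had a lower fitted level in Grhl3 KO. Their smallest unadjusted p-values were those of Ivl (involucrin) at a log2 fold change of −1.90 and of the envelope genes Ppl at −0.83 and Cnfn at −0.82 (edgeR adjusted p = 0.504, 0.553 and 0.613). The basal markers summed to 26695 to 34679.7 CPM in Grhl3 KO and 28952 to 38058 CPM in wild type, with 1 of 6 genes higher, 5 lower and 0 past the threshold in edgeR. The part of these epithelial layers in the S100A levels was not tested.

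The 3 non-member genes whose log2 CPM was most like that of S100a8 over the 10 libraries were Arfip1 (r = 0.965), Adrbk2 (0.964) and Inpp5d (0.961). Those most like S100a9 were Slc28a2 (r = 0.966), Adrbk2 (0.959) and Fam78a (0.958). These are the highest values among all non-member genes tested over 10 libraries, so the selection itself raises r, and they were not tested. Slc28a2 was at only 0.527 to 2.37 CPM, Fam78a at 0.475 to 2.59 CPM and Adrbk2 at 1.58 to 5.52 CPM. Inpp5d was at 4.59 to 10.7 CPM and Arfip1 at 59.5 to 88.8 CPM.

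For S100a10, S100a11, S100a6, S100a4 and S100a3 too, no correlation with S100a8 passed; whether these correlations differ from those of the other members was not tested. S100a11, an annexin A1 partner of squamous cells, was at 491, 637, 534, 612 and 586 CPM in the Grhl3 KO libraries and at 670, 778, 642, 851 and 670 CPM in the wild-type ones. It was the 1 member whose groups did not overlap, with Grhl3 KO lower and only 637 against 642 CPM between the nearest libraries; of all genes tested, 1.35% had groups that did not overlap and 0.568% in this direction. Scaled by total counts alone the groups did overlap, with a Grhl3 KO maximum of 615 and a wild-type minimum of 607 CPM. Means were 572 ± 59.1 and 722 ± 88.9 CPM (SD, n = 5 each). The log2 fold change of −0.34 had an SE of 0.11 and 95% limits of −0.59 to −0.09. Its edgeR adjusted p = 0.504, and its unadjusted edgeR p ranked 346 among all genes. Of the longest S100a11 transcript, 58.1% is at least 95% identical to 2 processed pseudogenes, so its count is uncertain.

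S100a10 forms a tetramer with annexin A2 at the plasma membrane. It was at 305, 382, 388, 420 and 282 CPM in Grhl3 KO and at 246, 527, 445, 406 and 510 CPM in wild type. Wild-type library 1028, highest in S100a8, was the lowest in S100a10. The log2 fold change was −0.26 (SE 0.20, 95% limits −0.70 to 0.17, edgeR adjusted p = 0.841).

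S100a6 (calcyclin), a binding partner of the CacyBP protein, was at 1086, 1814, 1513, 1254 and 910 CPM in Grhl3 KO and at 1389, 1884, 1334, 1929 and 1923 CPM in wild type. The 3 highest libraries were wild type and the 3 lowest Grhl3 KO, with overlap between. Means were 1315 ± 357 and 1692 ± 302 CPM (SD, n = 5 each; log2 difference −0.36 with limits −0.80 and 0.07, edgeR adjusted p = 0.763).

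S100a4 (metastasin), which binds non-muscle myosin and marks fibroblasts and motile cells, was at 50.6, 65.7, 96.1, 35.1 and 69.9 CPM in Grhl3 KO and at 121, 49.2, 119, 66.5 and 219 CPM in wild type. The 3 highest libraries were wild-type 1561, 1028 and 1528, and wild-type 1048 and 1555 lay within the Grhl3 KO range. Its log2 fold change of −0.86 had an SE of 0.39 and limits of −1.71 and −0.01 (edgeR adjusted p = 0.697). Among the 7 libraries numbered 1026 to 1048 it was −0.42. Fibroblast markers summed to 501 to 1158 CPM in Grhl3 KO and 566 to 1096 CPM in wild type; wild-type library 1561, highest in S100a4, had 642 CPM. Of the 11 fibroblast markers 7 were higher and 4 lower in Grhl3 KO, and 0 passed in edgeR.

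S100a3 was at 2.14, 7.36, 6.13, 5.40 and 6.27 CPM in Grhl3 KO and at 7.17, 5.63, 14.9, 4.69 and 18.2 CPM in wild type. Wild-type libraries 1528 and 1561 stood above every other library, of which the highest was at 7.36 CPM, and the rest overlapped. The log2 fold change was −0.88 (SE 0.43, 95% limits −1.82 to 0.05, edgeR adjusted p = 0.724) and −0.22 among the 7 libraries numbered 1026 to 1048. Hair markers, read because S100a3 is a hair gene, came mostly from Padi3, the deiminase gene, in the libraries with high sums. Padi3 averaged 8.08 of a summed 9.94 CPM in Grhl3 KO and 14.4 of 18 CPM in wild type. It ran from 0.537 to 18.8 CPM in Grhl3 KO and from 0.707 to 42.4 CPM in wild type. The hair sum was highest in wild-type library 1561 (45.8 CPM). It was nearly the same in wild type 1528 (20.4 CPM), high in S100a3, and in Grhl3 KO 1027 (20.2 CPM) and wild type 1555 (17 CPM), which were not. Both hair markers that could be tested were lower in Grhl3 KO and 0 passed in edgeR. S100a3 lies 1.07 kb before S100a4 on the same strand. In GENCODE M21 the predicted gene Gm42674 overlaps exons of both, and 60.6% of the longest S100a4 transcript is shared with it. The deposited counts hold no gene of that name and their annotation release is not stated. How reads shared among these genes were assigned is therefore not known. S100a3 with S100a4 had r = 0.76 and rho = 0.72 (permutation adjusted p = 0.0956 and 0.118). The r was 0.62 without Grhl3 KO 1026 and wild type 1561 and 0.43 among the 7 libraries.

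Among the receptors through which S100 proteins signal, 0 of 10 passed in edgeR, with 4 higher and 6 lower and 0 with an unadjusted p under 0.05. Bsg (basigin, a receptor of S100A9) was the most abundant, at 552 ± 56.6 and 554 ± 48.7 CPM, and Nptn (neuroplastin, a receptor of S100A8) stood at 188 ± 22.1 and 188 ± 18.5 CPM (SD, n = 5 each). The annexins, which S100A10 and S100A11 hold, had 7 higher and 3 lower of 10 tested and 0 past the threshold. Anxa1, the partner of S100A11, averaged 6650.1 ± 2031 CPM against 4951 ± 1688 CPM in wild type (log2 fold change 0.43, edgeR adjusted p = 0.796), and Anxa2, the partner of S100A10, at 1773 ± 265 and 1647 ± 458 CPM (0.11, edgeR adjusted p = 0.958). Anxa5 had the smallest p of the list, at −0.32 (edgeR adjusted p = 0.428).

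Of 11 other partner genes tested 5 were higher and 6 lower, and 0 passed in edgeR. Cyba, encoding a subunit of the NADPH oxidase that calprotectin supports, averaged 19.1 ± 4.74 CPM against 10.3 ± 2.10 CPM in wild type. Its log2 fold change was 0.89 (SE 0.20, edgeR adjusted p = 0.217), and it passed in DESeq2 only. The S100A4 partner Myh9 was at −0.02 and the S100A6 partner Cacybp at 0.20 (edgeR adjusted p = 0.990 and 0.711). A further list held cytokines that induce calprotectin in epithelium, receptors of such cytokines, and transcription factors. Of its 13 genes tested, 7 were higher and 6 lower and 0 passed in edgeR. Il17f was at −1.56, Il17rc at 0.32 and Tnf at −0.46 (edgeR adjusted p = 0.728, 0.688 and 0.795). Il22 failed the filter on low counts and passed in DESeq2 only. It was at 0 to 0.118 CPM in Grhl3 KO and 0.0941 to 2.96 CPM in wild type. Il17f ran from 1.16 to 4.83 CPM in Grhl3 KO and from 1.11 to 26.7 CPM in wild type.

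Of the other S100 genes only S100a1, S100a13 and S100g passed the filter on low counts. S100a1 was at 19.7 ± 3.45 and 21.2 ± 7.28 CPM and S100a13 at 12.9 ± 2.28 and 15.5 ± 2.38 CPM (SD, n = 5 each; edgeR adjusted p = 0.963 and 0.792). Between the outermost members on chromosome 3, 48 further genes were tested, nearly all of them cornified envelope genes. In edgeR 0 of the 48 passed the adjusted threshold, and the smallest adjusted p was 0.206. Before adjustment 14 (29.2%) had an edgeR p under 0.05, where the share over all genes tested was 7.16%. Many of the 48 belong to the Sprr and Lce families, so their p-values are not independent, and the share was not tested. In Grhl3 KO 21 were higher and 27 lower, with a median log2 fold change of −0.21.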

How the data were processed

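Oesophageal RNA of 10 mice was sequenced after poly(A) selection with a stranded kit, per the labels' protocols. The deposited values are whole-number counts per protein-coding gene, which the authors made with featureCounts against GRCm38, per the submitters' processing notes; neither the aligner nor the annotation release is stated in the sources used here. Columns were joined to samples by the number in each title. The table held 0 other per-sample columns and 0 rows without a gene.

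Genes were kept with filterByExpr (minimum count 10, minimum total 15) and scaled by TMM. They were tested with edgeR 4.0.16 (quasi-likelihood, robust) in R 4.3.3, with Benjamini-Hochberg adjustment over 13731 genes and a threshold of 0.05. DESeq2 1.42.0 and limma 3.58.1 (voom) were alternatives, beside other scalings and filters, leaving out libraries and the number series. SE follow from the F statistic; log2 CPM carry a prior count of 2. The fits were tested on simulated data. Positions and exon lengths come from GENCODE M21 (GRCm38) and similarity from blastn 2.17.0 (stretches of at least 75 bases at 95% identity).

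The members and lists were chosen with earlier results of these data known. The named genes are all members, up to 3 genes of smallest p and the 2 most abundant of each list, and the 3 genes most correlated with S100a8 or S100a9. Others (Il22, Ly6g, Ngp, Camp, Cxcr2, Mmp8 and Stfa2l1) were chosen after their values were seen. Exact tests had been planned for the summed shares of counts but were left out, and no p-value is given for these shares.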

Additional observations from a re-analysis of the deposited data

Results flagged for a closer look

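S100g, which encodes the vitamin D-dependent calcium-binding protein calbindin-D9k and is an S100 gene outside the S100A group, had 1 wild-type library far from the others. It was at 0.707, 1.16, 0.580 and 0.647 CPM in wild-type libraries 1028, 1048, 1528 and 1555 and at 19.2 CPM in wild-type library 1561. The 5 Grhl3 KO libraries stood at 5.76 to 15.4 CPM, above 4 of the wild-type libraries and below the fifth. Over all libraries the log2 fold change was 0.92 (SE 0.95, edgeR adjusted p = 0.906), and without wild-type library 1561 it was 3.45 (edgeR adjusted p = 0.0206). Library 1561 is set apart by its own S100g value. The second p takes no account of that choice and cannot be read as evidence of a difference. The gap of library 1561 to the next took 0.969 of the range of its group, above the critical value of 0.710 for 5 samples. In all, 34 groups of values were examined in this way and chance flags about 1 in 20.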

How the results depend on the processing

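The count of members past the adjusted threshold was 0 under all 21 alternative fits. S100a3, S100a4, S100a6, S100a10, S100a11 and S100a14 had lower fitted levels in Grhl3 KO under each of them; on the log2 scale S100a11 ran from −0.39 to −0.28, S100a10 from −0.42 to −0.12 and S100a14 from −0.27 to −0.08. S100a6 ran from −0.52 to −0.26, S100a4 from −1.06 to −0.42 and S100a3 from −1.07 to −0.22. For S100a3, only wild-type libraries 1528 and 1561 lay above every Grhl3 KO library. The log2 fold changes of S100a7a and S100a16 are near 0, and those of S100a8 and S100a9 rest on few libraries. The causes were not tested. With 1 library left out, S100a7a ran from −0.13 to 0.17, S100a8 from −0.51 to 0.11, S100a9 from −0.60 to 0.08 and S100a16 from −0.11 to 0.10. The S100a7a log2 fold change was −0.07 with the number series as a covariate and −0.06 among the 7 libraries numbered 1026 to 1048. That of S100a8 was 0.21 in limma voom, 0.11 without wild type 1028 and 0.09 without wild type 1555, and that of S100a9 was 0.16 in limma voom and 0.08 without wild type 1028. S100a16 was at 0.01 with total counts, 0.03 in limma voom, 0.00 without a filter and 0.06 without wild type 1528 and 1555 together. The members whose groups did not overlap numbered 0 with total counts in place of 1. Of the genes in the related lists 0 passed in edgeR and 2 in DESeq2 (Cyba and Il22), which called 127 of 18004 genes. Without wild-type library 1561, the library flagged for S100g, 1 passed (S100g), where edgeR called 7 of 13859. Because that library is set apart by its S100g value, the call is no independent test of S100g. The member pairs past the threshold by Pearson's r numbered 4, and 5 with values centred on their group means. The number was 1 when each pair was read without the 2 libraries farthest from the median of its first gene. The libraries left out therefore differ between pairs. The share of counts of S100a8 and S100a9, Grhl3 KO minus wild type, was −0.176 percentage points and ran from −0.368 to 0.0741 with 1 library left out, positive without wild-type library 1028 or 1555. No paired analysis was possible because the groups share no sample number.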
